A study of Mus musculus with 4 samples.

Results

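Induced pluripotent stem (iPS) cells made from mouse club cells were compared, gene by gene, with club cells cultured with doxycycline for 3 weeks. The comparison sets iPS cells, the end point of full reprogramming, beside cells at the end of the 3 weeks with the drug, before any withdrawal. Each value is the log2 array signal of the iPS cells minus that of the 3-week cells, so a difference of 1 is a 2-fold and a difference of 2 a 4-fold change of signal. A gene was kept where the brighter of both arrays read 6.67 or more, which is the median over the whole table of 4 arrays. That left 13237 of 23185 named genes, or 57.1%. Throughout, a gene is called bright on an array at or above 6.67 and dim below it, and is counted as higher or lower where both arrays differed at least 4-fold and the gene was kept.

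The series holds 4 Affymetrix arrays, with 1 population of adult mouse lung origin on each. Day0 is the club cells as freshly isolated, and 3w+Dox, called Club-iPL in the labels, is the population after 3 weeks with doxycycline. The 3w+Dox+2w-Dox population, here the withdrawn cells, was then kept for 2 weeks without the drug. The fourth array holds the Club-iPS cells. The labels give no strain, transgene, clone, passage, culture medium or feeder layer for any of them, and they do not say for how long or at what time the iPS cells saw doxycycline. With 1 array on each side there is no replicate check. No p-value or error can be given, and the differences are those of these 2 arrays. In such bulk RNA, fewer cells of a type and less RNA per cell cannot be told apart.

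Reprogramming converts a specialised cell into a pluripotent one by forced expression of Oct4, Sox2, Klf4 and c-Myc, usually from transgenes that doxycycline switches on. Cells first divide and lose features of their origin, and those that are not epithelial then pass a transition toward an epithelial form. Only late do cells switch on their own pluripotency network, which then maintains itself without the transgenes. Interrupting the procedure means that the drug is withdrawn before this late step. Pluripotent mouse cells are further known for a short cell cycle, active telomerase, microRNAs of the miR-290 cluster, and germ cell genes that are silenced by DNA methylation in most body cells.

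The labels were set against marker genes. Of the 10 markers chosen for iPS cells, 9 were bright on the iPS array and at least 4-fold brighter there than at 3w+Dox. The exception was Dppa5a, a marker of pluripotent cells, which read 4.74 at 3w+Dox and 5.30 in iPS cells. For the 3w+Dox array the club cell secretoglobin Scgb1a1 read 12.62, the club cell cytochrome P450 Cyp2f2 12.44, and the lung lineage factor Nkx2-1 9.93. Scgb3a2, a second secretoglobin, and Cldn10, a claudin of club cells, were dim there at 6.25 and 6.22. Fibroblast and macrophage genes were bright on the same array, with 26 of 29 and 32 of 37 measured list members at or above 6.67, against 7 and 11 at Day0 and 21 and 17 in iPS cells. A dim reading does not show that a gene is silent. Ndufb3, a subunit of respiratory complex I picked after its values were seen, read between 2.59 and 3.27 on all 4 arrays.

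In iPS cells 827 named genes (3.57%) were higher and 1196 (5.16%) lower. At a 2-fold difference the shares were 11.4% and 12.4%. These percentages are the background for every count of higher or lower list members below. For counts of bright members, above and below, the background is the number of bright genes among all 23185 named genes. That number was 11686 on the Day0 array, 11941 at 3w+Dox, 12161 after withdrawal and 11842 in iPS cells. The median difference of all named genes was 0.06, the standard deviation of the differences across genes was 1.18, and the signals of both arrays correlated across genes with Pearson's r = 0.88, where genes are not independent replicates. At the edge of the brightness threshold, Gsx2, a homeobox gene, was kept with a brighter signal of 6.6693, and Clec14a, a lectin of endothelial cells, was left out with 6.6689. At the edge of the fold threshold, Gemin6, a component of the SMN complex, was counted with a difference of 2.00027, and Cd7, a T cell surface protein, was not with 1.99488.

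**Figure D1:**
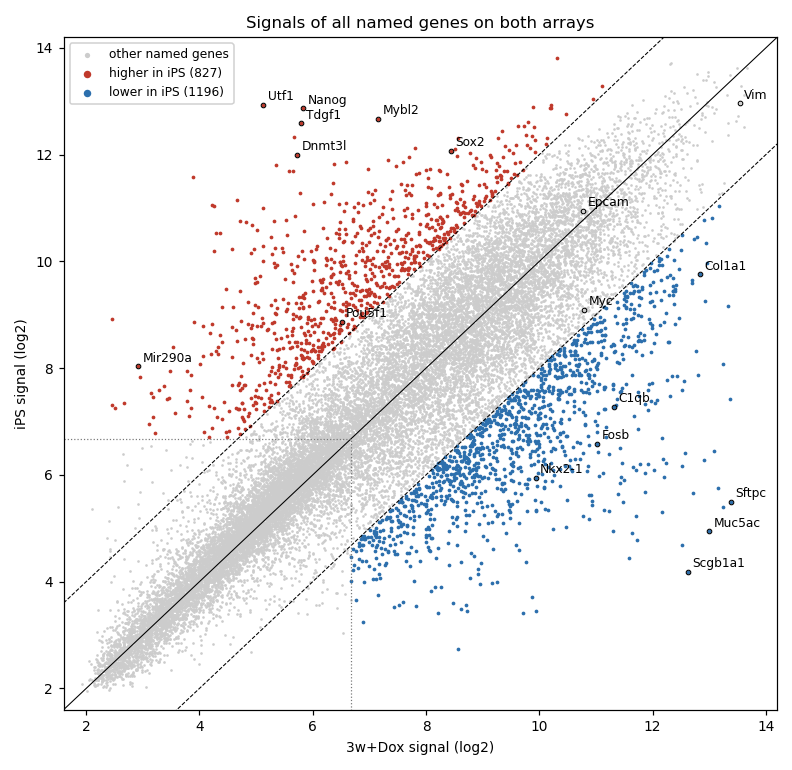
Log2 signal at 3w+Dox (x axis) against log2 signal in iPS cells (y axis), 1 dot per named gene. Red dots are the 827 genes counted as higher and blue dots the 1196 counted as lower. The solid line marks equal signals, the dashed lines a 4-fold difference and the dotted lines the brightness threshold of 6.67. Utf1, Nanog and Tdgf1 lie far above the upper dashed line, and Scgb1a1, Muc5ac and Sftpc far below the lower one.

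The 12 largest increases were led by pluripotency genes. Utf1, a chromatin factor of embryonic stem cells, read 4.88 on the Day0 array, 5.13 at 3w+Dox, 4.89 after withdrawal and 12.93 in iPS cells, a 223-fold difference between the iPS and 3w+Dox arrays. Nanog, a core pluripotency factor, followed the same pattern with 6.27, 5.83, 5.96 and 12.87. Nr0b1, an orphan nuclear receptor of the pluripotency network, read 4.52, 4.21, 4.26 and 11.07. Each of these genes was dim on the other 3 arrays, and the ranges of those 3 arrays did not reach 6.67. The differences of the other 9 genes lay between 6.18 and 7.69. They were Tdgf1, a co-receptor of Nodal also called Cripto, the F-box gene Fbxo15, Trh, the precursor of thyrotropin-releasing hormone, Apela, a peptide hormone of early embryos, Dnmt3l, the AP-2 factor Tfap2c, the long non-coding RNA Platr10, and the zinc finger genes Zfp981 and Zfp979. The last 2 belong to a family of near-identical copies, so their probe sets may read relatives as well. Folds against such dim signals are not exact.

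The 12 largest decreases were led by secreted proteins of lung and airway epithelium. Scgb1a1 read 13.52 on the Day0 array, 12.62 at 3w+Dox, 13.04 after withdrawal and 4.18 in iPS cells, a 347-fold difference. Sftpc, surfactant protein C of alveolar type 2 cells, read 13.49, 13.39, 13.54 and 5.50. Muc5ac, a gel-forming mucin of goblet cells, was brightest at 3w+Dox, differed by -8.06 and read 8.27 at Day0, 8.80 after withdrawal and 4.94 in iPS cells. Ltf, the iron-binding defence protein lactoferrin, read 11.06, 13.25, 12.36 and 5.40. Cxcl15, a chemokine of lung epithelium, and Aldh1a1, which makes retinoic acid, were bright on all arrays but that of iPS cells and differed by -7.83 and -6.63. Muc5b, a mucin of airway secretory cells, differed by -7.40, Anxa10, an annexin, by -7.16, Slurp1, a secreted epithelial protein, by -7.07, Sprr2a3, a small proline-rich protein of cornified layers with close copies, by -6.96, Ctse, the protease cathepsin E, by -6.86, and Atp10b, a phospholipid transporter, by -6.73.

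The other 2 arrays separate these genes into groups. By the counting rule, every higher gene is bright in iPS cells and every lower gene is bright at 3w+Dox, so those readings are no result. The medians on these arrays are shaped by the rule too. Of the 827 genes higher in iPS cells, 351 (42.4%) were bright on no array but that of iPS cells, and 310 (37.5%) were bright on all 4. A further 54 were bright at Day0 and in iPS cells but dim at 3w+Dox and after withdrawal. The median signal of the 827 genes was 6.51 on the Day0 array, 6.58 at 3w+Dox, 6.56 after withdrawal and 9.82 in iPS cells, and the first 3 of these medians lay close together. The 1196 lower genes had medians of 8.13, 9.65, 9.37 and 6.56. Of these, 327 (27.3%) were bright on every array but that of iPS cells, 214 (17.9%) only at 3w+Dox and after withdrawal, and 71 (5.94%) only at 3w+Dox.

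**Figure D2:**
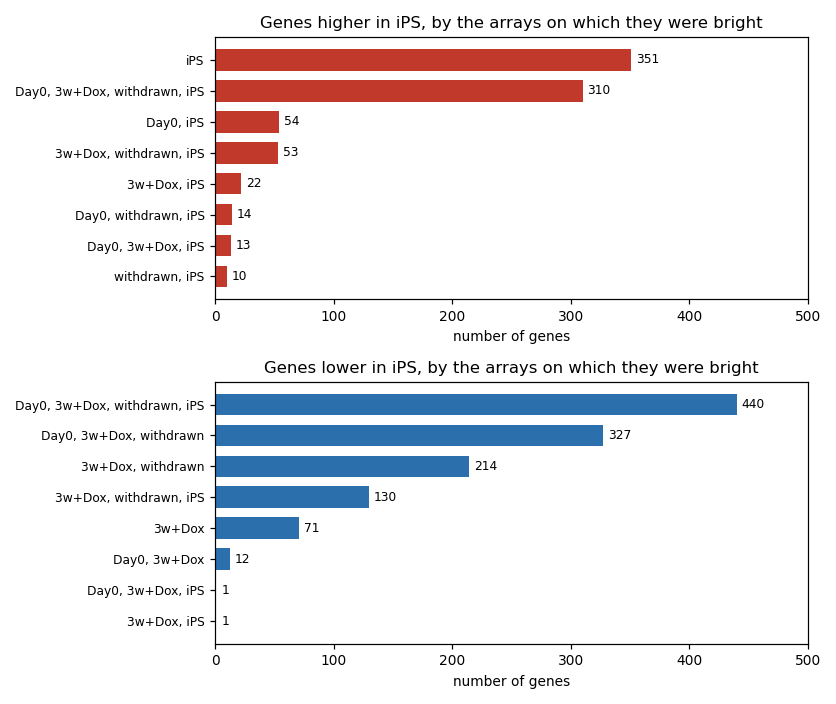
Number of genes (x axis) counted as higher (upper panel) or lower (lower panel) in iPS cells than at 3w+Dox, split by the arrays on which the gene was bright (y axis). By the counting rule, every higher gene is bright in iPS cells and every lower gene at 3w+Dox. The longest bar among higher genes is the 351 that were bright in iPS cells alone. Among lower genes it is the 440 that were bright on all 4 arrays.

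Of the 4 factors used for reprogramming, Sox2 and Pou5f1 were higher in iPS cells and Klf4 and Myc were not. Sox2, an HMG-box factor that is also a gene of airway epithelium, read 10.65 on the Day0 array, 8.44 at 3w+Dox, 8.85 after withdrawal and 12.07 in iPS cells. Pou5f1, which encodes Oct4, read 6.20, 6.51, 5.87 and 8.87, and was bright in iPS cells alone. Klf4, a Krüppel-like factor also made in epithelia, differed by -0.05, with 10.72 at 3w+Dox and 10.67 in iPS cells. Myc, a growth-promoting factor, differed by -1.70. Whether RNA from a transgene adds to these signals is not known, because the positions of the probes were not examined. Over the 4 factors the median was 1.15.

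Core pluripotency genes stood apart in nearly every member. Of 26 measured, 25 passed the brightness threshold and the same 25 were higher, with a median difference of 4.23 over the 26 against 0.06 over all named genes. On the 3w+Dox array 7 of the 26 were bright, on the Day0 array 6 and on the iPS array 25. The 4 with the largest differences were Utf1, Nanog, Nr0b1 and Fbxo15, at 6.77 to 7.80. Zfp42, the marker also called Rex1, read 4.31 on the Day0 array, 4.37 at 3w+Dox, 4.24 after withdrawal and 8.62 in iPS cells. Esrrb, an orphan nuclear receptor, read 5.20, 5.48, 5.45 and 10.17, and Lin28a, an RNA-binding protein that blocks let-7 maturation, 6.43, 6.55, 6.35 and 10.38. In all 3 genes the other arrays lay close together and below the brightness threshold.

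**Figure D3:**
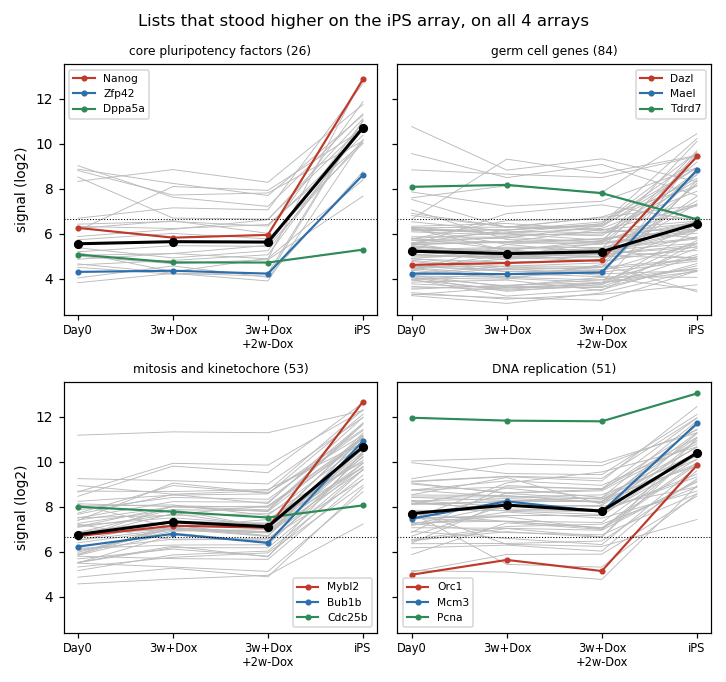
Log2 signal (y axis) of the members of 4 lists on the 4 arrays (x axis), 1 grey line per gene, with the list median in black and 3 members in colour. The number of measured members is in brackets, the dotted line is the brightness threshold, and the lines join populations and are not a time course. The core pluripotency and mitosis medians run close to level over the 3 arrays before iPS and stand at 10.71 and 10.66 in iPS cells, while many germ cell genes remain dim there.

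Promoter sequences were read to show the octamer core ATGCAAA, the site that Oct4 recognises, in the members that carry it. For every gene the window runs from 250 bases before to 50 bases after the start given by RefSeq (GRCm38.p6), and each motif was searched on both strands. A window was matched for 18 of the 26 core pluripotency genes. Of these 18, 3 held the octamer core (16.7%), against 738 of 17452 promoters of named genes (4.23%). In the other lists searched, the share ran from 0% in macrophage and myeloid promoters to 22.2% (4 of 18) in those of club cell markers. Most club cell markers were lower in iPS cells. Windows shown, here and below, were chosen among genes counted as higher, with a single chromosome left out of the choice. Those of Nanog (chr6:122707239-122707538, plus strand) and Zfp42 (chr8:43306960-43307259, minus strand) are the 2 most increased of these members that hold the octamer core. They are given 5′ to 3′ with the motif in capitals.
Nanog: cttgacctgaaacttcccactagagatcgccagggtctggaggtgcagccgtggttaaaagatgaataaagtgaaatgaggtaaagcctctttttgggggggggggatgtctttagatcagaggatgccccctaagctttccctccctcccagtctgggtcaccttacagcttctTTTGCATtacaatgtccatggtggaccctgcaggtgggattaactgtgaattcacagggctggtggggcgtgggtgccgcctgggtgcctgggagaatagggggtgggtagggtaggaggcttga
Zfp42: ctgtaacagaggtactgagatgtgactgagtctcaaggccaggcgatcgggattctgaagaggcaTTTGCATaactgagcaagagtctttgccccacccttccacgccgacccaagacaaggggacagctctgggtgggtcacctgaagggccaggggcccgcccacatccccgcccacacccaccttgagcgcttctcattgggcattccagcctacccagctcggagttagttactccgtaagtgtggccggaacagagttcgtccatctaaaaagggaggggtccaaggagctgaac
A match describes these letters in the window and is not evidence of binding, and the arrays hold no measurement of it.

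Mouse pluripotent cells occur in a naive form, as in the early blastocyst, and a primed form, as after implantation, and genes of both lists were among those higher in iPS cells. Of 18 naive-state genes 11 were higher, with a median of 2.54, led by Tfap2c (6.18), the growth factor Fgf4 (5.45), Esrrb (4.70) and Zfp42 (4.26). Of 16 primed and formative-state genes 6 were higher and 1 lower, with a median of 1.26. The homeobox factor Otx2 read 6.10 on the Day0 array, 5.65 at 3w+Dox, 5.90 after withdrawal and 11.70 in iPS cells. The de novo DNA methyltransferase Dnmt3b was higher by 4.21, the zinc finger factor Zic2 by 3.09 and Cldn6, a claudin of early embryonic cells, by 2.65. The lower member was Foxa2, a forkhead factor of endoderm and of airway epithelium, which read 9.75 at 3w+Dox and 6.93 in iPS cells.

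Ligands and receptors of pluripotent cells differed by gene. Of 21 measured, 8 were higher and none lower at 4-fold, with a median of 0.84. Tdgf1 read 4.90 on the Day0 array, 5.79 at 3w+Dox, 5.14 after withdrawal and 12.59 in iPS cells, Lefty2, an inhibitor of Nodal, 4.51, 4.71, 4.76 and 10.75, and Kit, the stem cell factor receptor, 6.04, 5.69, 5.71 and 10.85. Fgf4 was higher by 5.45. Of 17 surface and adhesion genes 4 were higher and 1 lower, with a median of -0.21. Alpl, the tissue-nonspecific alkaline phosphatase long used to stain pluripotent colonies, was higher by 4.32, the adhesion molecule Pecam1 by 3.65, Fut9, which makes the SSEA-1 glycan, by 2.86 and Cldn6 by 2.65. The mucin-like surface protein Cd24a, which also marks epithelium, was the lower member, with a difference of -3.04. Cdh1 and Epcam, adhesion proteins of epithelial and of pluripotent cells, were bright on all 4 arrays and differed by -0.30 and 0.18.

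Among genes that write and erase DNA methylation 9 of 18 were higher and 0 lower, with a median of 1.77. Dnmt3l, the cofactor of de novo methylation, read 6.30 at Day0, 5.73 at 3w+Dox and 6.04 after withdrawal, all dim, and was higher in iPS cells by 6.27. Tet1, which oxidises methylated cytosine, read 5.76, 6.97, 6.66 and 11.72. Dppa3, a maternal factor that protects methylation, was higher by 4.07. Polycomb genes, whose products keep developmental genes silent, had 9 of 33 higher and 0 counted as lower, with a median of 0.90. At 2-fold, 16 were higher and 2 lower. The lowest difference, -3.01, was that of a gene that did not pass the brightness threshold. Mtf2, an accessory subunit of the Polycomb repressive complex 2, was higher by 3.28, the complex 1 subunits Phc1 and L3mbtl2 by 2.89 and 2.68, and Cbx7, which binds trimethylated histone H3, by 2.58. The signals of Cbx7 were 10.76 on the Day0 array, 8.24 at 3w+Dox, 8.35 after withdrawal and 10.83 in iPS cells, so the gene was bright on all 4 arrays, and Day0 and iPS lay above the 2 other arrays.

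Of 38 histone modifiers and chaperones 7 were higher and 0 lower, with a median of 1.33, led by the remodeller Hells (4.15), the histone methyltransferase Suv39h2 (3.54), the assembly factor subunit Chaf1b (3.35) and the acetyltransferase Hat1 (3.03). The 29 subunits of BAF remodelling complexes had a median of 0.49. Smarcd1 was higher by 2.33, and the ATPase subunit Smarca2 read 10.59 on the Day0 array, 9.86 at 3w+Dox, 9.84 after withdrawal and 7.15 in iPS cells. Genes that silence retroelements had 6 of 23 higher, with a median of 1.08, among them Dnmt3l, the zinc finger genes Zfp459 (4.11) and Zfp819 (3.02), and L1td1 (3.99), an RNA-binding protein derived from a retroelement. Of 14 genes of the 2-cell embryo, 7 passed the brightness threshold and 2 were higher, with a median of 0.96. Both belong to the Zscan4 family of near-identical copies, with Zscan4e at 4.88 and Zscan4c at 2.65.

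Of 21 oncofetal genes that the let-7 microRNAs target 9 were higher and 1 lower, with a median of 1.90. Mycn, a relative of Myc, read 5.88 on the Day0 array, 6.20 at 3w+Dox, 6.63 after withdrawal and 11.12 in iPS cells, while Myc itself differed by -1.70. The imprinted gene Peg10 (3.89), Lin28a (3.83) and the ubiquitin ligase Trim71 (3.82) followed. Ccnd2, which encodes cyclin D2, was the lower member at -2.93, with 12.37 at 3w+Dox and 9.44 in iPS cells. Hmga2, a chromatin protein of fetal and mesenchymal cells, read 7.48, 10.03, 10.90 and 9.46 on the 4 arrays in the same order and differed by -0.57.

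MicroRNA genes were mostly dim. Of 28 microRNA genes of embryonic stem cells, 2 passed the brightness threshold, 1 was higher, and the median over the 28 was 0.64. With values under the 25th percentile set to that percentile, the median was 0.00, and without the brightness filter 14.3% were at least 4-fold higher. The gene counted as higher was Mir290a, the first hairpin of the cluster that dominates the microRNAs of mouse embryonic stem cells, with 3.32 on the Day0 array, 2.92 at 3w+Dox, 2.55 after withdrawal and 8.04 in iPS cells. Mir19a, of a cluster that promotes proliferation, read 3.14 at 3w+Dox and 6.55 in iPS cells and was just dim there. Mir302c, of the miR-302 cluster, which is related to that of Mir290a, read 2.68, 2.42, 2.73 and 4.58 and stayed dim. Of 39 microRNA genes of differentiated cells, 3 passed and 0 were counted, with a median of -0.25. The largest differences were those of Mir23a (-1.78) and Mir27a (-1.58), which lie in 1 shared transcript. Such probe sets may read the hairpin or its longer precursor, so their signals are not taken as measures of the mature strand.

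The mature strands below (RefSeq, GRCm38.p6) are shown because they hold nearly the same seed, bases 2 to 8, in capitals. Strands were read for Mir290a, Mir302a, Mir302b, Mir302c and Mir302d only, and for Mir302a the 5p strand alone was found. Also not shown are miR-302c-3p, whose bases 2 to 8 are AGUGCUU, and the 5p strands, which have other seeds. Which strand the cells used was not measured. Mir290a lies at chr7:3218674-3218697 and Mir302b at chr3:127545275-127545297, both on the plus strand, for the strands given here.
mmu-miR-290a-3p: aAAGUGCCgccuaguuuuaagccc
mmu-miR-302b-3p: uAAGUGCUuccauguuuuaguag
mmu-miR-302d-3p: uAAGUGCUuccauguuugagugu
The seeds of miR-302b and miR-302d are identical, and that of miR-290a differs from them in its last base. Mir302b read 3.21 at 3w+Dox and 4.03 in iPS cells and Mir302d 3.44 and 4.07, all dim.

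A subset of germ cell genes, which act in oocytes, sperm and their precursors, was higher in iPS cells. Of 84 measured, 25 were higher and 0 lower, 38 passed the brightness threshold, and the median difference over the 84 was 0.99, or 0.61 with values under the 25th percentile set to it. On the arrays at Day0, at 3w+Dox and after withdrawal 10, 8 and 10 of the 84 were bright, against 36 in iPS cells. Of all 23185 named genes, 11842 were bright in iPS cells. Rnf17, a Tudor protein of germ cell granules, read 4.17 on the Day0 array, 4.47 at 3w+Dox, 4.16 after withdrawal and 9.47 in iPS cells. Meioc, a meiosis regulator, read 3.95, 3.54, 3.82 and 8.39, and Dazl, an RNA-binding protein of the germ line, 4.63, 4.71, 4.83 and 9.44. Sohlh2, a bHLH factor of germ cells, was higher by 4.71. These 4 were dim on every array but that of iPS cells. At the other end, Tdrd7 (-1.53), another Tudor protein, was bright at 3w+Dox with 8.18 and just dim in iPS cells with 6.65. It was picked after its values were seen.

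Germ cell promoters were searched for the E-box CACGTG, a site read by repressors of germ cell genes. It was present in 19 of 69 germ cell promoters (27.5%) and in 1429 of 17452 promoters of named genes (8.19%). Within the list it was found in 5 of 20 promoters of higher genes and in 14 of 49 promoters of the others, 25% and 28.6%. The E2F-type site TTCCCGC, known from promoters of genes used in S phase, was found in 14 of the 69 (20.3%). It was in 9 of the 20 promoters of higher genes (45%) and in 5 of the 49 others (10.2%). In the DNA replication list it was in 10 of 28 promoters of higher genes and in 5 of 14 others, 35.7% each. These splits follow the calls themselves and were not tested. The median number of CpG dinucleotides in the window was 17 in germ cell promoters and 13 in all. It was 24 in DNA replication and 23 in mitosis promoters, 12.5 in those of core pluripotency genes and 3 in those of club cell markers. By the choice described above, the 2 most increased genes that hold the E-box are Mael and Stag3. Mael, a piRNA pathway protein (chr1:166238695-166238994, minus strand), and Stag3, a meiotic cohesin subunit (chr5:138280259-138280558, plus strand), are shown 5′ to 3′ with the E-box in capitals.
Mael: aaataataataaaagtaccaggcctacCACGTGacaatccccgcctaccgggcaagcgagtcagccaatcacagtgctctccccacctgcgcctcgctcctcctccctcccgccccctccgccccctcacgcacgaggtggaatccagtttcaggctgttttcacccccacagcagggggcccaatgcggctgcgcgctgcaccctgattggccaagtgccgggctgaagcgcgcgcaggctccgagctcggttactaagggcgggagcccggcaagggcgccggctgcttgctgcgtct
Stag3: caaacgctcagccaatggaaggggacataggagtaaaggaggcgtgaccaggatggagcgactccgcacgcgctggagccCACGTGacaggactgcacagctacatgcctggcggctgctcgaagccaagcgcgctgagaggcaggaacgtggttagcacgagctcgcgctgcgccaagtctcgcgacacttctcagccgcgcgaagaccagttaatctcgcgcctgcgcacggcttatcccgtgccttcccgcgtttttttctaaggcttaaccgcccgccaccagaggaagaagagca
Mael read 4.21 at 3w+Dox and 8.84 in iPS cells, and Stag3 read 6.05 and 10.23.

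Of 19 telomere genes 7 were higher and 13 at or past a 2-fold increase, and the median was 1.72. Terc, the RNA template of telomerase, read 11.54 on the Day0 array, 10.32 at 3w+Dox, 10.42 after withdrawal and 13.80 in iPS cells, close to the highest value of the table, 13.85. Tert, its reverse transcriptase, read 6.37, 6.48, 6.64 and 8.80 and was bright in iPS cells alone. Rif1, a telomere and replication-timing protein, was higher by 3.02, Dkc1, the dyskerin that stabilises the telomerase RNA, by 2.82, and Terf1, a shelterin subunit, by 2.38.

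Genes of mitosis were higher in nearly all members, and those of DNA replication in most. Of 53 mitosis and kinetochore genes 51 were higher, with a median of 3.15, and of 51 DNA replication genes 33 were higher and 49 at or past a 2-fold increase, the median being 2.59. All members of both lists passed the brightness threshold. Mybl2, a transcription factor of the cell cycle, read 6.70 on the Day0 array, 7.16 at 3w+Dox, 7.07 after withdrawal and 12.67 in iPS cells. Bub1b, a kinase-like protein of the spindle checkpoint, read 6.23, 6.80, 6.39 and 10.93, Ncapg, a condensin subunit, 5.53, 6.25, 5.78 and 10.43, and Kif2c, a kinesin that shortens microtubules, 6.51, 7.01, 6.68 and 11.10. Among the replication genes, Orc1 of the origin recognition complex was higher by 4.21, the replication factor Mcm10 by 4.16, Gins1 of the replicative helicase by 3.84 and the polymerase subunit Pole by 3.46. The proliferation antigen Mki67 read 7.71, 8.94, 8.60 and 11.43. In each of these genes the 3 other arrays lay closer to each other than to iPS.

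Promoter windows were matched for 43 of the 53 mitosis and 42 of the 51 replication genes. The CHR element TTTGAA and the CCAAT box, both known from promoters of mitotic genes, were each found in 29 of 43 mitosis promoters (67.4%). In all named genes they were found in 2763 (15.8%) and 6768 (38.8%) of 17452 promoters. Replication promoters held the CHR element in 7 of 42 (16.7%) and the CCAAT box in 25 of 42 (59.5%). An E2F-type site, TTCCCGC, was found in 15 of 42 replication promoters (35.7%) and in 1055 of all (6.05%), and the related TTTGGCGC in 8 of 42 (19%) and 124 of all (0.711%). The windows below are of the most increased higher genes that hold the named motifs, by the same choice. The E2F-type site is in capitals for Mcm3, a subunit of the replicative helicase (chr1:20820263-20820562, minus strand), and Cdt1, which loads that helicase (chr8:122567765-122568064, plus strand). For Ncapg (chr5:45669675-45669974, plus strand) and Bub1b (chr2:118597961-118598260, plus strand) the capitals mark the CHR element and the CCAAT box.
Mcm3: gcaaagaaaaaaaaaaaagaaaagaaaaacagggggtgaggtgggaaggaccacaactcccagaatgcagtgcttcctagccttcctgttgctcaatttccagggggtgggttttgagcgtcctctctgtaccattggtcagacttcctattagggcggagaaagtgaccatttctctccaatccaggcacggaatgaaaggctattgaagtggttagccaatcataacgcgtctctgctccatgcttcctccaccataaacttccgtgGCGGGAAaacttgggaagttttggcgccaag
Cdt1: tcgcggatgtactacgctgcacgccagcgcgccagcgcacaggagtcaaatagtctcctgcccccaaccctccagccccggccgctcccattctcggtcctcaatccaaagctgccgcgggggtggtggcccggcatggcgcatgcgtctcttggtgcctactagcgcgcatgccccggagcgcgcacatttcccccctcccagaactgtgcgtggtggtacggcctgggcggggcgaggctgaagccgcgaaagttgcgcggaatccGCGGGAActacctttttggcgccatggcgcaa
Ncapg: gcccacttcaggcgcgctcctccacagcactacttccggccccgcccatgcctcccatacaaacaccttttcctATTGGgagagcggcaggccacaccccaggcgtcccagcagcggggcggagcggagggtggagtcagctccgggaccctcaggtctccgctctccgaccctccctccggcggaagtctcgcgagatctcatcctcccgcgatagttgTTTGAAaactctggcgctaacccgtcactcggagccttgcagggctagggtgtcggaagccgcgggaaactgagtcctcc
Bub1b: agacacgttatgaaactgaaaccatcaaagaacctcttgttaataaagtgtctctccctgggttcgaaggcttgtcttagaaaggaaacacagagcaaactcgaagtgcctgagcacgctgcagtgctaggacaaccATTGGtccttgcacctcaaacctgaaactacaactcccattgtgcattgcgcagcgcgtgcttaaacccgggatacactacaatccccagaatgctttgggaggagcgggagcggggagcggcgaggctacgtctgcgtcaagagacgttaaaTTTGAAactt
Mcm3 read 8.24 at 3w+Dox and 11.70 in iPS cells, and Cdt1 read 7.61 and 10.96.

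Of 47 DNA repair genes 18 were higher and 0 lower, with a median of 1.76. Fanci, of the Fanconi pathway for crosslink repair, was higher by 4.19, followed by the uracil glycosylase Ung (4.13), the recombination protein Rad54b (4.12) and the helicase Blm (4.05). The list of CDK inhibitors, p53 and senescence genes had 0 of 37 higher and 4 lower, with a median of -0.24. The lower members were the cyclin Ccnd2, which promotes division, the growth factor binding protein Igfbp3 (-2.86), and the CDK4 and CDK6 inhibitors Cdkn2b (-2.10) and Cdkn2c (-2.05). Cdkn2a, whose locus makes p16 and Arf, read 6.85 on the Day0 array, 8.11 at 3w+Dox, 8.57 after withdrawal and 7.12 in iPS cells, a difference of -0.99.

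Ribosome biogenesis genes differed by smaller steps. Of 48 measured, 9 were higher at 4-fold, 44 at 2-fold and 0 lower, and the median was 1.59. Dkc1 (2.82) and Utp14a (2.80), both of ribosomal RNA processing, Rrp9 (2.20) and the nucleolar protein Nolc1 (2.18) differed most. Genes of serine, glycine and one-carbon metabolism had 7 of 28 higher and 2 lower, with a median of 1.06. Gldc, the glycine decarboxylase, read 5.83 on the Day0 array, 5.77 at 3w+Dox, 5.47 after withdrawal and 11.28 in iPS cells. Its partner Amt was higher by 4.02, Shmt1, which interconverts serine and glycine, by 3.59 and Cbs, which makes cystathionine, by 3.15. Amt, Shmt1 and Cbs were also bright at Day0, with 8.58, 9.09 and 9.59. The lower members were the mitochondrial folate enzyme Aldh1l2 (-2.97) and the methyltransferase Nnmt (-2.10).

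Oxidative phosphorylation differed by a median of 0.50, with 1 of 46 higher, which was Cox7a1, an isoform of a cytochrome oxidase subunit (2.43). The next largest difference was 1.42. Glycolysis and hypoxia genes had a median of -0.13, with 3 of 33 higher and 2 lower. The glucose transporter Slc2a3 was higher by 3.01, the phosphoglycerate mutase Pgam1 by 2.20 and the lactate dehydrogenase subunit Ldhb by 2.00, while the hypoxia-response gene Ndrg1 stood at -3.34 and Pfkfb4, a regulator of glycolysis, at -2.70. In cholesterol and fatty acid synthesis 0 of 30 genes were counted in either direction at 4-fold, with a median of 0.53, and the largest differences were those of the desaturase Scd1 (-1.86) and the elongase Elovl6 (1.73). Of 26 amino acid transporters 2 were higher, Slc38a4 by 4.31 and Slc7a3 by 3.69, and 4 were lower, among them Slc6a14 (-4.55) and the cystine carrier Slc7a11 (-2.71). The list median was 0.15.

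Most marker genes of secretory and alveolar lung epithelium were lower in iPS cells. Of 27 club cell markers 19 were lower and 0 higher, with a median of -3.04. The number of bright members was 27 on the Day0 array, 21 at 3w+Dox, 24 after withdrawal and 5 in iPS cells. Beside Scgb1a1, Muc5b and Aldh1a1, the carboxylesterase Ces1d read 13.13 on the Day0 array, 9.72 at 3w+Dox, 11.61 after withdrawal and 3.41 in iPS cells. The 6 members that were dim at 3w+Dox did not pass the brightness threshold. Of 34 detoxifying enzymes 16 were lower, with a median of -1.47, led by Aldh1a1, the aldehyde dehydrogenase Aldh3a1 (-6.34), Ces1d (-6.31) and the carbonyl reductase Cbr2 (-6.17).

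Alveolar type 2 markers, which were bright beside those of club cells on the 3 lung arrays, had 16 of 21 lower and a median of -3.74, the lowest of the 65 lists. Sftpc, Cxcl15, the surfactant protein gene Sftpb (-6.63) and the phosphate carrier Slc34a2 (-6.25) differed most. Alveolar type 1 markers had 14 of 20 lower and 1 higher, with a median of -2.74, led by the sodium channel subunit Scnn1a (-5.83) and the water channel Aqp5 (-4.89). Of 20 goblet and mucous markers 12 were lower, with a median of -2.28, among them Clca1, a secreted goblet cell protein (-5.94), and the membrane mucin Muc4 (-5.89).

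Ciliated cell markers were dim in most members on both arrays compared. Of 34 measured, 14 passed the brightness threshold, 1 was higher and 0 were lower, with a median of -0.11. Their median signal was 9.26 on the Day0 array, 6.19 at 3w+Dox, 7.64 after withdrawal and 5.93 in iPS cells, so it was dim in both populations compared. Foxj1, the factor that drives motile cilia, read 11.19, 7.99, 10.45 and 8.38. The higher member was Rfx2, a factor of cilia and of spermatogenesis, which read 7.34 at 3w+Dox and 9.90 in iPS cells. The second largest difference was that of Dynlrb2, a dynein light chain, at -1.92. Among 8 neuroendocrine markers 2 were higher, the ubiquitin hydrolase Uchl1 (2.63) and the granin Chga (2.12), with a median of 0.66.

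**Figure D4:**
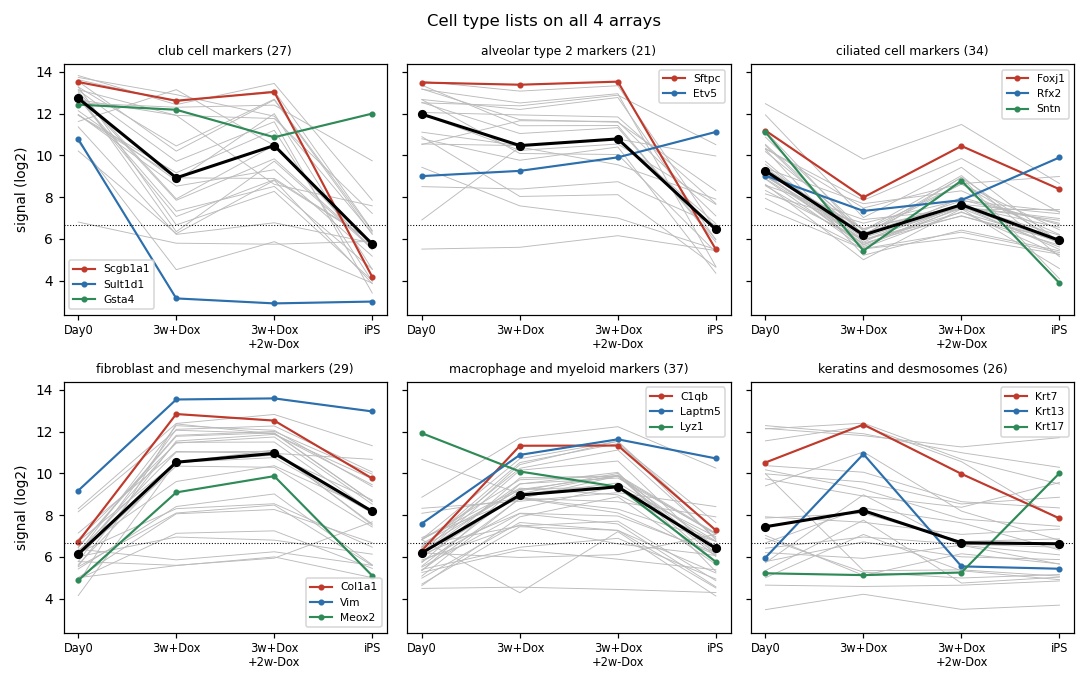
Log2 signal (y axis) of 6 cell type lists on the 4 arrays (x axis), 1 grey line per gene, the list median in black and named members in colour. The dotted line is the brightness threshold, and the lines join populations and are not a time course. Club, alveolar type 2, fibroblast and myeloid medians stand lower in iPS cells than at 3w+Dox, while the ciliated median is dim on both.

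Transcription factors of lung epithelium had 11 of 31 lower and 0 higher, with a median of -1.72. Nkx2-1 read 11.17 on the Day0 array, 9.93 at 3w+Dox, 10.07 after withdrawal and 5.94 in iPS cells. Foxa1, a forkhead factor of endoderm, stood at -4.15, the epithelial ETS factor Ehf at -4.27, and the stem cell receptor Lgr5, listed with them, at -5.28. Lgr5 was dim at Day0 with 5.78 and bright at 3w+Dox with 10.91 and after withdrawal with 10.67.

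Keratins and desmosome genes had 9 of 26 lower and 1 higher, with a median of -1.04. The simple epithelial keratins Krt7 and Krt19 stood at -4.49 each, Krt80 at -4.23, and Krt13, a keratin of stratified epithelia, at -5.49. Krt13 read 5.96 on the Day0 array, 10.92 at 3w+Dox, 5.54 after withdrawal and 5.43 in iPS cells. The exception was Krt17, a keratin of basal and stressed epithelium, with 5.21, 5.13, 5.25 and 10.01. Basal and squamous markers had 8 of 23 lower and a median of -0.27, with Slurp1, Krt13, the serpin Serpinb5 (-4.58) and the cornified envelope precursor Sprr1a (-4.31) furthest apart. Of 24 tight junction genes 3 were lower, Cldn18 of alveolar epithelium (-4.28), Ocln, which encodes occludin (-2.85), and Cldn3 (-2.25), and Cldn6 was higher. The list median was -0.45.

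Fibroblast markers had 15 of 29 lower and 1 higher, with a median of -2.05. Col1a1, a chain of type I collagen, read 6.73 on the Day0 array, 12.84 at 3w+Dox, 12.53 after withdrawal and 9.76 in iPS cells, so the iPS signal lay between Day0 and the 2 other cultures. Vim, the intermediate filament vimentin, read 9.17, 13.54, 13.59 and 12.97 and differed by -0.57. Meox2, a homeobox factor of mesoderm, stood at -3.99, Col3a1, a fibrillar collagen, at -3.44, Osr1, a factor of lung mesenchyme, at -3.42 and Mfap5, a microfibril protein, at -3.31. The higher member was Gli1, a target of Hedgehog signalling (2.08). The labels name no feeder cells, and whether the signal of the 21 fibroblast markers that were bright on the iPS array came from other cells in the dish was not tested.

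Matrix lists held mostly lower genes among those counted. Of 31 collagen chains 15 were lower and 1 higher, with a median of -1.90, led by Col10a1 (-4.09), Col3a1, Col5a2 (-3.44) and Col6a2 (-3.25), and the higher one was Col18a1 of basement membranes (2.33). Of 41 matricellular, proteoglycan and cross-linking genes 20 were lower and 35 at least 2-fold lower, with a median of -1.87. Fmod, the proteoglycan fibromodulin, read 6.70 on the Day0 array, 11.92 at 3w+Dox, 11.45 after withdrawal and 6.20 in iPS cells. Its relative Aspn stood at -4.83, the elastic fibre protein Fbln5 at -4.28 and Fbn2, a fibrillin, at -3.93. Matrix proteases and inhibitors had 13 of 32 lower, with a median of -1.55, led by the inhibitor Timp3 (-3.67) and the protease Adamts12 (-3.41). Integrins and laminins had 11 of 30 lower and 2 higher, with a median of -1.59. Itgb6, the epithelial integrin subunit that activates TGF-beta, stood at -6.48, Itga2, a collagen receptor, at -4.06 and Lamb3, a laminin chain, at -3.79. Lama1, a laminin chain of early embryos, and Nid2, a basement membrane linker, were higher by 2.50 and 2.15.

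Contractile genes had 7 of 25 lower and 0 higher, with a median of -1.31. The smooth muscle actin Actg2 stood at -4.55, calponin Cnn1 at -3.17, the myosin light chain Myl9 at -3.16 and Itga8, an integrin of myofibroblasts, at -2.91. Among factors of epithelial-mesenchymal transition and epithelial regulators, 7 of 30 were lower and 1 higher, with a median of -0.996. Snai2, a repressor of E-cadherin, read 6.09 on the Day0 array, 11.74 at 3w+Dox, 12.10 after withdrawal and 8.50 in iPS cells. The mesenchymal cadherin Cdh11 stood at -2.99 and the epidermal factor Tfap2a at -2.43. Grhl3, an epithelial factor, was the higher member with 8.09, 7.16, 5.66 and 10.46.

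Of 37 macrophage and myeloid genes 23 were lower and 0 higher, with a median of -2.38 and median signals of 6.19 on the Day0 array, 8.96 at 3w+Dox, 9.36 after withdrawal and 6.41 in iPS cells. C1qc and C1qb, chains of complement C1q, stood at -4.19 and -4.05, the macrophage receptor Adgre1 at -4.04 and the lysozyme Lyz1, which lung epithelium also makes, at -4.33. Ptprc, the leukocyte antigen CD45, read 4.70, 7.44, 7.27 and 4.51 on the 4 arrays. The part that such cells have in the differences above was not tested. Of 20 lymphocyte markers 2 passed the brightness threshold and 0 were counted at 4-fold, with a median of 0.13 and Trbc2, a T cell receptor constant region, at -1.54 and Cd3e at 1.46. Endothelial markers had 2 of 20 higher, Pecam1 (3.65), which pluripotent cells also carry, and Egfl7, a secreted vascular protein (2.10). The list median was 0.38.

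Other immune lists also held lower genes and 0 higher ones. Of 14 MHC class II genes 4 were lower, with a median of -0.62. H2-Aa, an alpha chain, read 9.60 on the Day0 array, 8.96 at 3w+Dox, 10.01 after withdrawal and 3.96 in iPS cells, and Cd74, the invariant chain, stood at -3.20. Of 17 MHC class I genes 4 were lower, with a median of -1.12, led by H2-D1 (-2.61) and H2-T23 (-2.47), class I chains with close relatives. Interferon-response genes had 7 of 38 lower and 0 higher, with a median of -0.91, among them the antiviral GTPase Mx1 (-3.17), the RNA sensor Ifih1 (-3.06), and Irf7 (-2.78). Chemokine, cytokine and complement genes had 13 of 43 lower and 0 higher, with a median of -1.26, led by the acute-phase protein Saa1 (-5.82), the cytokine Il18 (-4.61), the chemokine Cxcl2 (-4.09) and Tnf (-3.59).

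In the TGF-beta, BMP and activin list 7 of 48 genes were higher and 11 lower, with a median of -1.30. The higher ones were led by Tdgf1, Lefty2 (6.04), Gdf3 (4.56) and Lefty1 (3.67), all tied to Nodal signalling. The lower ones were led by Bmp5 (-4.01), Tgfb2 (-3.79), Tgfb3 (-3.56) and the receptor Bmpr1b (-3.08). In the FGF list 1 of 31 was higher, Fgf4, and 2 were lower, Fgf2 (-2.74) and Fgf7 (-2.10), with a median of -0.24. In the IGF list 6 of 18 were lower and 1 higher, with a median of -1.46. The binding protein Igfbp5 stood at -5.57, the protease Pappa, which cleaves such proteins, at -3.88 and the growth factor Igf1 at -3.42, while Igf2bp1, an RNA-binding protein of fetal tissue, was higher by 3.77. Wnt genes had 8 of 48 lower and 0 higher, with a median of -0.66, led by Lgr5, its ligand Rspo3 (-3.64), Wnt5a (-3.50) and the antagonist Dkk2 (-3.29). In the Notch list 1 of 21 was counted, the glycosyltransferase Mfng, higher by 2.34, and the next largest difference was that of the ligand Jag1 (-1.75). The list median was 0.23.

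Of 38 Hox genes, which record position along the body axis, 17 passed the brightness threshold and 5 were lower, with a median of -0.83. Hoxd13 read 5.78 on the Day0 array, 9.22 at 3w+Dox, 9.50 after withdrawal and 6.09 in iPS cells. Hoxc8 (-2.82), Hoxa2 (-2.68) and Hoxa10 (-2.55) followed. The number of bright Hox genes was 1 on the Day0 array, 17 at 3w+Dox, 21 after withdrawal and 4 in iPS cells. Mesenchymal homeobox, T-box and forkhead factors had 14 of 33 lower and 1 higher, with a median of -1.48, led by Meox2, Osr1, the blood and epithelial factor Runx1 (-3.23) and Tbx15 (-3.10). The higher one was Tbx3, a T-box factor of limb and of naive pluripotent cells (2.39). Of 27 germ layer genes 4 were higher and 2 lower, with a median of 0.51. Otx2, the neural factors Olig2 (4.33) and Neurod1 (3.89), and Eomes (2.49), a factor of early mesendoderm, were higher, and Foxa2 and Gata6 (-2.27), factors of endoderm, were lower.

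Imprinted genes went in both directions, with 4 of 39 higher, 4 lower and a median of -0.23. Slc38a4 (4.31), Peg10 (3.89), Zdbf2 (3.84) and Phlda2 (3.40) were higher. Lower were Xist (-2.62), Peg13 (-2.55), Dlk1, a Notch-like ligand (-2.49), and the adaptor Grb10 (-2.23). Xist, the RNA that coats the inactive X chromosome of females, read 5.45 on the Day0 array, 9.87 at 3w+Dox, 10.39 after withdrawal and 7.25 in iPS cells. Of 12 sex-linked genes 3 were lower, Xist among them, and 0 higher, with a median of -0.23. The Y-linked genes Eif2s3y and Uty, a translation factor and a demethylase relative, read 9.31, 7.67, 7.84 and 5.05, and 8.90, 7.51, 7.95 and 5.02. Xist and both Y-linked genes were bright on the 3w+Dox array, Y-linked signals were dim in iPS cells, and the sex or number of donor mice is not given in the labels. Sex and the state of the cells cannot be told apart in these genes.

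Immediate early and heat shock genes had 9 of 26 lower and 1 higher, with a median of -1.46. Fosb, a subunit of AP-1, read 12.07 on the Day0 array, 11.02 at 3w+Dox, 11.19 after withdrawal and 6.58 in iPS cells, Fos stood at -3.87, Egr2 at -3.30 and Egr1 at -2.70. The higher one was the small heat shock protein Hspb1 (2.16). Lysosome and autophagy genes had 3 of 30 lower, with a median of -0.80, the cathepsins Ctsh (-4.24), Ctsk (-3.20) and Ctss (-2.21). RNA-binding and splicing regulators had 5 of 41 higher and 2 lower, with a median of 0.65. The lower ones were Mbnl1 (-3.01), a splicing factor of differentiated cells, and Zfp36 (-2.39), which destabilises cytokine messages. The higher ones were led by Lin28a, Igf2bp1, Rbpms2 (3.66) and the neural stem cell protein Msi1 (2.60).

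**Figure D5:**
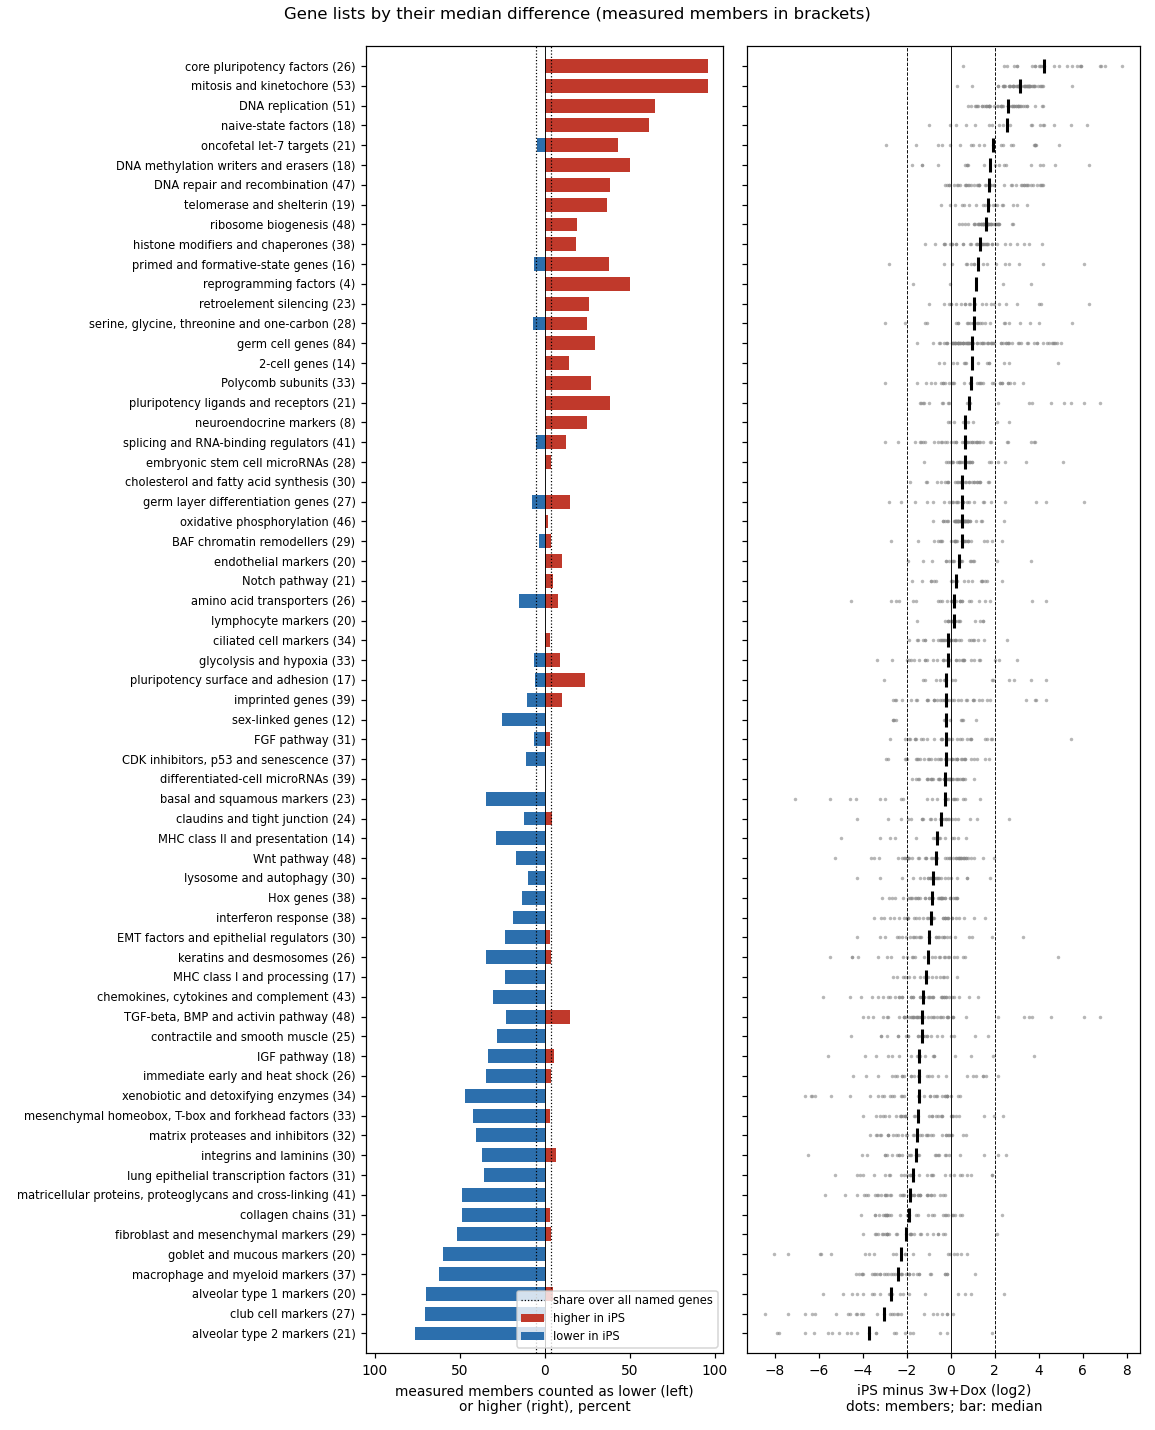
The 65 gene lists, ordered by their median difference, with the number of measured members in brackets (y axis). The left panel gives the percent of measured members counted as lower or higher in iPS cells (x axis), with the shares over all named genes, 5.16% and 3.57%, as dotted lines, and the right panel gives each member's log2 difference as a dot and the median as a bar. Core pluripotency factors stand at the top with a median of 4.23 and alveolar type 2 markers at the bottom with -3.74.

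The AP-1 site TGACTCA, searched in the same way, was found in 821 of 17452 promoters (4.7%), in 1 of 25 of collagen chains and in 2 of 18 of club cell markers. Germ cell promoters held it in 6 of 69 (8.7%), macrophage and myeloid promoters in 2 of 29 (6.9%) and DNA replication promoters in 1 of 42. It was in 0 of 18 promoters of core pluripotency genes and in 0 of 43 mitosis promoters. Across the 65 lists the median difference was at least 1 in 14, at most -1 in 20 and between these in 31. Many lists share members, such as Dnmt3l, Tdgf1, Cldn6 and Lgr5, so their counts are not independent.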

How the data were processed

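Per the labels' protocols, total RNA came from an RNeasy extraction and went through an Ambion WT kit before biotin labelling. The deposited signals are on a log2 scale. Per the submitters' processing notes, RMA was used, with affy and R 3.0.2. No source used here gives a genome build or the definition of the probe sets. The table holds 25206 probe sets and 0 missing values. A platform annotation names 23185 of them with 1 gene symbol each and 2021 with none, and RefSeq's table held every one of these gene IDs. The number of arrays, not a read depth, limits the precision.

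The iPS minus 3w+Dox difference was taken without further normalization in Python 3.11.15 with pandas 2.3.3, numpy 2.4.6 and scipy 1.17.1, and drawn with matplotlib 3.10.9. The counting of calls was tested on simulated data for its arithmetic, which gives no estimate of error between arrays. Of 1882 listed genes in 65 lists, 1767 were measured (7 by an earlier symbol) and 104 symbols were not matched. The comparison, the lists, the markers and the motifs were chosen with earlier results of these data known.

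Genes named are the 12 largest increases and 12 largest decreases among those counted, without predicted or clone-named genes, receptor segments and small RNAs; up to 4 higher and 4 lower members of each list with the largest differences, or the 2 largest differences where fewer than 2 were counted; a fixed set of markers; and the genes beside the thresholds. Promoters are the first start listed for each gene, and 7 motifs were searched in 7 lists. Alternatives were 2-fold and 8-fold thresholds, no brightness filter or the 75th percentile (8.82), quantile normalization applied once more, subtraction of each array's median of named genes, and a floor at the 25th percentile (5.07).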

Additional observations from a re-analysis of the deposited data

How the results depend on the processing

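No paired analysis was possible because each population has 1 array. The count of genes higher in iPS cells was 827, with 2639 at 2-fold and 332 at 8-fold, and the count of genes lower in iPS cells was 1196, with 2885 and 427. Under the other 5 alternatives they lay between 595 and 868 higher and between 835 and 1223 lower, within 1.5 times the reported counts. The share of higher genes among those counted was 40.9%, 41.1% to 43.4% under the filters and scalings, and 47.8% and 43.7% at 2-fold and 8-fold. Scaling moved the median of all named genes by -0.06 to 0.06. No list median turned to the opposite sign under the second quantile normalization, the centring or the raised floor. With the raised floor, the medians of microRNAs of embryonic stem cells (0.64), microRNAs of differentiated cells (-0.25) and sex-linked genes (-0.23) became 0.00, that of germ cell genes went from 0.99 to 0.61, that of 2-cell genes from 0.96 to 0.66 and that of let-7 targets from 1.90 to 1.53. Of 255 named genes, 0 changed sign under these 3 scalings. Centring left 1 gene and the raised floor 2 genes below the 4-fold threshold. Signals near the top of the table may be compressed and dim signals are near background, so the largest folds are not exact.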

Other observations

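Some families that no list covers were picked after their values were seen, so their counts are descriptions. Small nucleolar RNAs, which guide modification of ribosomal and spliceosomal RNA, had 29 of 106 measured genes higher in iPS cells and 0 lower, with a median of 1.50. As with the microRNA genes, these probe sets may read a longer precursor, so their signals are not taken as measures of the mature RNA. Snora34 read 6.79 at 3w+Dox and 11.09 in iPS cells, and Snora75 6.46 and 10.43. Histone genes of the H1, H2A, H2B, H3 and H4 families, many of them made during replication and some near-identical, had 13 of 40 higher and 1 lower, with a median of 1.26. H1f1, a linker histone, read 4.86 and 9.25, H2ac4 read 6.47 and 10.74, and the lower one, H2bc4, 11.65 and 9.55.

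Platr transcripts, long non-coding RNAs named for their link to pluripotency, had 6 of 10 higher and 0 lower, with a median of 2.42, and Platr14 read 5.46 at 3w+Dox and 10.25 in iPS cells. Gamma protocadherins, adhesion proteins encoded by overlapping transcripts that share exons and therefore signal, had 8 of 22 lower and 0 higher, with a median of -1.76. Of 373 genes named Zfp and a number, 24 were higher and 5 lower, with a median of 0.33. Long non-coding RNA genes as a class had 32 of 2051 higher (1.56%) and 17 lower (0.829%), and protein-coding genes 750 of 19525 higher (3.84%) and 1173 lower (6.01%). Only 290 of the 2051 passed the brightness threshold, against 12562 of the 19525. Genes that do not pass cannot be counted, so the shares of these 2 classes are not directly comparable. Of the 2021 probe sets without a gene name, 801 passed the brightness threshold, 45 (2.23%) were higher and 56 (2.77%) lower in iPS cells.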
